A study of Mus musculus with 2 samples.

Results

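The histone genes of the mouse left cerebral cortex were followed in 2 total RNA libraries. Members were the genes with symbols starting Hist1h, Hist2h, Hist3h or Hist4, called replication-dependent here, and 10 replacement genes: H3f3a, H3f3b, H2afz, H2afv, H2afx, H2afy, H2afy2, H2afj, H1f0 and H1fx. The rule used names only and found 80 of 55536 gene entries, of which 70 were replication-dependent and 10 were replacement genes. Of the 70, 6 belong to H1, 20 to H2A, 19 to H2B, 12 to H3 and 13 to H4, and 3 are annotated as pseudogenes (Hist1h2aj, Hist1h2al and Hist3h2bb-ps).

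Both libraries came from adult males aged 8 to 10 months of B6CASTF1/J, the F1 hybrid of a B6 by Cast cross. Both belong to 1 group, and the labels name no treatment, so no condition was compared. Replicates 1 and 2 are the animals that the labels number 2 and 4. Both carry the same donor label, so their being separate animals rests on those numbers. Each library was made from 300 ng of RNA with ribosomal RNA reduced, which does not require a poly(A) tail.

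Histones package DNA into nucleosomes, with H2A, H2B, H3 and H4 in the core and H1 on the linker. The replication-dependent genes lie in clusters, lack introns as a rule, and are the only known animal mRNAs that end in a conserved stem-loop in place of a poly(A) tail. Their mRNAs are made mainly in S phase. The replacement genes are spread over the genome, mostly have introns and poly(A) tails, and supply histones in cells that do not divide, such as neurons.

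The stem-loop that marks the ends of these mRNAs is shown first, because it separates the classes by sequence. It was searched as the histone 3′ stem-loop, a stem of 6 base pairs around a loop of 4 bases, with partly fixed letters. The first arm was GG, 2 bases of C or T, then CT, and the second AG, 2 bases of A or G, then CC. The loop was T, any base, T, then A, C or T. Other arms and loops were not searched. The search used the sense strand of GENCODE M21 transcripts, for members after the stop codon. The most frequent forms were, with the loop in capitals and 5′ to 3′:
26 genes: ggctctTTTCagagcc
7 genes: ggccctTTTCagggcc
6 genes: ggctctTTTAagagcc
2 genes: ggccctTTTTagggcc
2 genes: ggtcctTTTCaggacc
H2afx alone: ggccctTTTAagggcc

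The stem differed by class. All 34 replication-dependent H1, H2A, H2B and H3 genes with the stem-loop had the arm ggctct. None of the 12 H4 genes with it did: 10 had ggccct, which was also the arm of the replacement gene H2afx, and Hist1h4b and Hist1h4j had ggtcct. In all, 46 of 70 replication-dependent genes (65.7%) held the stem-loop, against 1 of 10 replacement genes and 8 of 55456 other genes (0.0144%). For the other genes the whole of each transcript was searched, not only the part after the stop codon. The replacement gene was H2afx, which encodes the variant that is phosphorylated at DNA breaks, and its stem-loop started 47 bases after the stop codon. In the 46 genes it started 22 to 59 bases after the stop codon, with a median of 32. Of the 24 genes without it, 3 are pseudogenes and 15 have an annotated transcript that ends within 2 bases of the stop codon, so the letters after the coding part were not searched there. The remaining 6 were Hist1h1a and Hist2h3b, whose annotated tails were short, and Hist1h2bc, Hist2h2be, Hist1h2bq and Hist1h2br, which have longer annotated forms without these letters.

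Annotated transcripts often ran past the stem-loop. The annotation held 3 to 4884 bases after it, with a median of 91. Hist1h1d was longest at 4884 bases, followed by Hist4h4 at 2445. The gene tables hold 1 value per gene, so reads before and after the stem-loop were not told apart.

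Promoters also differed between the classes. RefSeq promoter windows of GRCm38.p6, from 250 bases before to 50 bases after the start, matched 69 of the 80 members (61 replication-dependent and 8 replacement). The motifs searched, on both strands, were the TATA box (letters TATAAA), the CCAAT box and the octamer ATTTGCAT, a binding site of POU factors. TATAAA was found in 34 of 61 replication-dependent promoters (55.7%) and in 0 of 8 replacement promoters, against 13.6% of all RefSeq promoters. CCAAT was found in every matched H1, H2A, H2B and H3 promoter of the replication-dependent genes but in 3 of 12 of H4. It was also found in 5 of 8 replacement promoters, against 37.4% of all promoters. The octamer was found in 7 of 18 H2A and 6 of 16 H2B promoters and in no other member's, against 1.75% of all promoters. These are letters found anywhere in a window, not at a set distance from the start, with no measure of binding. Windows of neighbouring genes can overlap, so the same site can count for both, as the octamer did for Hist1h2ba and Hist1h2aa.

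The 150 bases before the RefSeq start are shown for the matched gene with the highest level in H2B, in H4 and among the replacement genes, with the searched motifs in capitals. That start lay 52, 6 and 338 bases from the GENCODE start of Hist2h2bb, Hist1h4h and H3f3a. The H3f3a stretch lies within the GENCODE span of the gene.
Hist2h2bb, chr3:96269550-96269699, plus strand: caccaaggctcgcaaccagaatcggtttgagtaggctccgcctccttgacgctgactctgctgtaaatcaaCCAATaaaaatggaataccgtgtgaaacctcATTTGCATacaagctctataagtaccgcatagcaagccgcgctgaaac
Hist1h4h, chr13:23530894-23531043, plus strand: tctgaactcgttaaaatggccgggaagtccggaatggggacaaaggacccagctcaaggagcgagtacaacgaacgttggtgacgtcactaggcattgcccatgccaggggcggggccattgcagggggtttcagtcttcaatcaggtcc
H3f3a, chr1:180813606-180813755, minus strand: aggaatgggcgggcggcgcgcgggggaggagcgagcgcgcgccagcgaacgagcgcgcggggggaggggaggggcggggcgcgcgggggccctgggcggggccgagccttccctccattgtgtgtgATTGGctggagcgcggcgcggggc

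Hist2h2bb carried CCAAT and the octamer, H3f3a carried CCAAT on the other strand (ATTGG as printed), and Hist1h4h carried none of the 3 motifs in this stretch. Pairs of members often faced away from each other. In 15 pairs the starts were divergent and lay within 1000 bases, and 14 of these joined an H2A gene to an H2B gene. The other was Hist1h2bh with Hist1h3f. Levels within a pair could differ: Hist1h2bg stood at a mean of 28.8 TPM and its neighbour Hist1h2ae, 175 bases away, at 2.21 TPM.

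Levels are given as TPM, a transcript abundance per length, with ± for the SD over the 2 animals (n = 2). With 1 group there is no test, and no p-value is given. The libraries held 26925514 and 30143684 expected counts, of which 24176 and 27599 fell on members. That was 0.0979% and 0.101% of counts outside ribosomal RNA, tRNA and spike-ins. A count of 3 corresponds to 0.122 and 0.109 CPM. All 9 cortex neuron markers looked up reached 1 TPM in both libraries, where 59.0% of protein-coding genes did. All 5 striatum markers did as well, and they summed to 622 and 665 TPM. Reaching this level therefore does not tell cortex from other tissue. Whether the dissection held striatum was not tested. Markers of choroid plexus summed to 746 TPM in replicate 1 and 6.65 TPM in replicate 2. In bulk tissue, fewer cells of a type and less RNA per cell cannot be told apart.

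Per length, replication-dependent genes summed to more than the replacement genes in this adult cortex. Their 70 genes summed to 1548 TPM in replicate 1 and 1552 TPM in replicate 2 (1550 ± 2.60). The 10 replacement genes summed to 494 and 528 TPM (511 ± 24.3). The ratio of replacement to replication-dependent TPM was therefore 0.319 and 0.340 (0.330 ± 0.0151), below 1 in both libraries. By expected counts, which favour long transcripts, the ratio was 0.721 and 0.748, so the order held. These ratios set a sum over 70 genes against a sum over 10, and the order turned when levels were summarised per gene. The median gene stood at 8.37 TPM in the replication-dependent set and at 29.2 TPM in the replacement set. By the geometric mean of TPM + 0.01 over genes the ratio was 7.07. This summary weights genes equally, and 16 of the replication-dependent genes did not reach 1 TPM in both libraries.

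At least 1 TPM in both libraries was reached by 64 of the 80 members, namely 54 of 70 replication-dependent and all 10 replacement genes. Over all genes 27.1% reached this level, and over protein-coding genes 59.0%. Hist1h2aa, Hist1h2ba, Hist1h2ap and the pseudogene Hist1h2aj had 0 counts in both libraries. Hist1h2aa and Hist1h2ba encode testis variants. Hist1h1t, the testis H1, had 0 and 3 counts. Hist1h2ap, whose coding part is identical to that of Hist1h2ao, did have counts in the other deposited quantification.

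**Figure D1:**
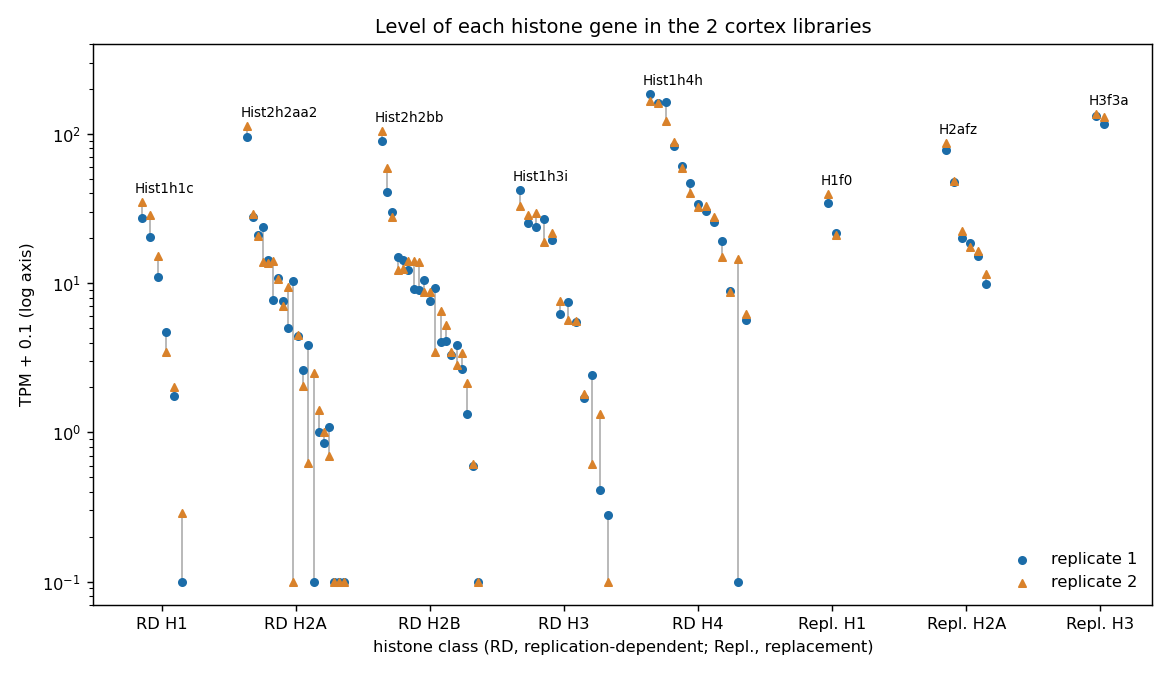
Level of each of the 80 genes as TPM + 0.1 on a log axis, ordered within each class by mean TPM, with a circle for replicate 1, a triangle for replicate 2 and a line joining them. The name of the highest gene of each class is given; the 4 genes at 0 in both libraries sit at the bottom, and long lines mark genes listed at or near 0 in 1 library.

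H4 held more TPM than any other class. Its 13 genes summed to 823 and 770 TPM (796 ± 36.9), which was 51.4% ± 2.47 of the replication-dependent TPM and 43.4% ± 3.13 of their expected counts. Hist1h4h (chromosome 13, 23531050 to 23531519) was highest of all members at 186 and 165 TPM. Hist1h4k followed at 161 and 160 TPM, and Hist1h4m at 163 and 122 TPM. Hist1h4k and Hist1h4m overlapped between the libraries, so their order was not fixed: Hist1h4m stood above Hist1h4k in replicate 1 and below it in replicate 2. Hist1h4f (83.4 and 87.6 TPM) and Hist1h4d (60.5 and 59.4 TPM) came next and overlapped neither each other nor the 3 above them. The order differed in the other deposited quantification, though Hist1h4h still led H4. Hist1h4f stood at 25.4 and 16.8 TPM there, below Hist1h4d at 31.95 and 32.4 TPM. Hist1h4a stood at 25.1 and 123 TPM there, above Hist1h4k (106 TPM) and Hist1h4m (109 TPM) in replicate 2. Hist4h4, the H4 gene on chromosome 6 outside the clusters, stood at 5.53 and 6.07 TPM.

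H2B and H2A followed. The 19 H2B genes summed to 265 and 302 TPM (284 ± 26.6). Hist2h2bb on chromosome 3 led them at 89.3 and 105 TPM, ahead of Hist3h2ba on chromosome 11 at 40.6 and 59.4 TPM and Hist1h2bg at 29.8 and 27.7 TPM. Hist2h2bb lies within the same-strand noncoding gene Gm42743, which was listed at 1.84 and 1.93 TPM. The 20 H2A genes summed to 235 and 242 TPM (239 ± 4.67). Hist2h2aa2 on chromosome 3 led at 94.85 and 112.45 TPM, then Hist3h2a on chromosome 11 at 27.8 and 28.9 TPM and the processed pseudogene Hist1h2al at 20.9 and 20.6 TPM. The level of Hist1h2al is uncertain, since the other deposited quantification listed it at 0 in both libraries. Hist3h2a lies within Trim17 on the same strand, and Trim17 stood at 1.74 and 1.72 TPM. In both classes the leading gene by these values lay outside the large chromosome 13 cluster. In the other quantification Hist1h2ai on chromosome 13 led H2A in replicate 1 at 71.1 TPM. Hist2h2aa1 on chromosome 3 led it in replicate 2 at 160 TPM. Hist2h2aa2 stood at 50.1 and 0.066 TPM there. Among H2B genes in that quantification, Hist2h2bb stood at 54.9 and 48.5 TPM and Hist3h2ba at 33.6 and 72.3 TPM. Hist3h2ba thus led H2B in replicate 2.

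H3 and H1 were lower. The 12 replication-dependent H3 genes summed to 160 and 153 TPM (157 ± 5.22). Hist1h3i was highest by mean, at 42.1 and 32.5 TPM, Hist1h3e stood at 25.1 and 28.4 TPM and Hist2h3b at 23.8 and 29.6 TPM. Hist1h3e and Hist2h3b overlapped. In the other quantification Hist1h3b led H3 instead, at 32.0 and 38.7 TPM, against 29.4 and 19.4 TPM for Hist1h3i. The 6 replication-dependent H1 genes summed to 64.9 and 83.8 TPM (74.3 ± 13.4). Hist1h1c, a somatic linker histone subtype, stood at 27.4 and 34.8 TPM, Hist1h1e at 20.3 and 28.5 TPM and Hist1h1a at 10.9 and 15.1 TPM. Each of the 3 was lower in replicate 1.

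By position, the 56 replication-dependent genes on chromosome 13 held 1213 and 1160 TPM, the 10 on chromosome 3 held 254 and 289 TPM, the 3 on chromosome 11 held 75.82 and 97.02 TPM, and Hist4h4 is the 1 gene on chromosome 6. Length mattered to these sums. The 54 replication-dependent genes shorter than 1000 bases held 1350 and 1343 TPM with 8760 and 9571 expected counts, while the 16 longer ones held 197 and 208 TPM with 5285 and 6222 counts. The genes with an annotated stem-loop held 1073 and 1072 TPM.

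**Figure D2:**
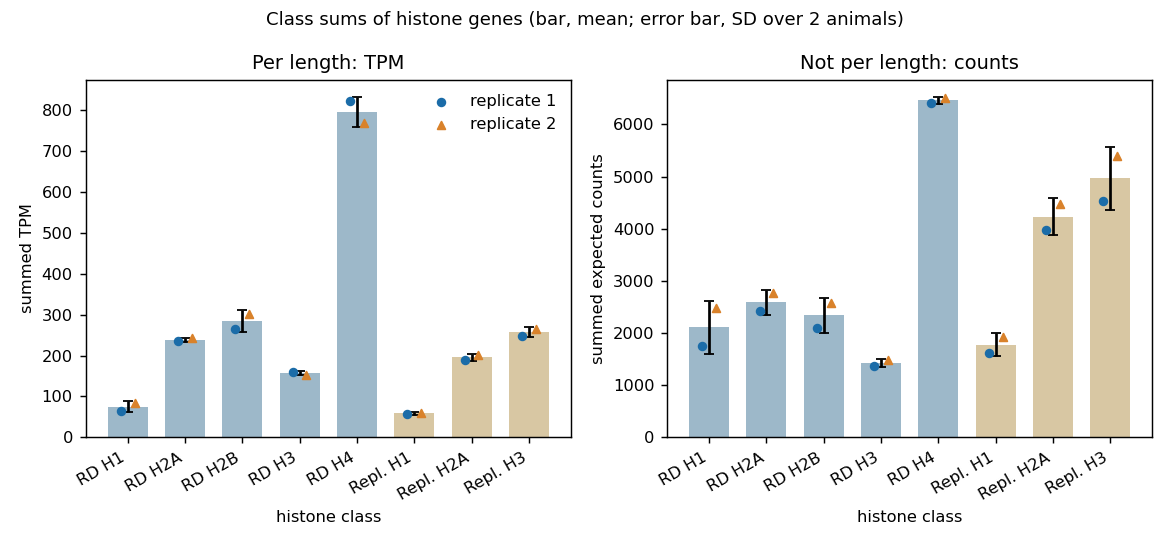
Summed TPM (left) and summed expected counts (right) of each class, with bars for the mean, error bars for the SD over 2 animals and points for each library. H4 has the tallest bar in both panels, and the replacement classes are higher relative to the others in counts than in TPM.

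Among the replacement genes, both H3.3 genes stood highest by gene totals, which include noncoding forms. H3.3 is the H3 variant placed outside replication by the HIRA and ATRX-DAXX pathways. H3f3a (chromosome 1, 180800832 to 180813943) stood at 132 and 136 TPM, and H3f3b (chromosome 11, 116021912 to 116027962) at 116 and 130 TPM. H3f3b was below H3f3a in each library, and the ranges of the pair did not overlap, though only narrowly. The coding parts of the pair differ at 95 of 408 bases. The 2 H3.3 genes, all forms included, made up 62.2% ± 1.87 of all H3 TPM (77.6% ± 1.17 by counts). Of H3f3b, the noncoding form H3f3b-204 stood at 65.0 and 68.1 TPM. Its coding form H3f3b-201 stood at 45.0 and 54.9 TPM, below the coding form H2afz-201 of H2afz at 73.83 and 76.05 TPM. The share of H3.3 by coding forms alone was not computed.

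The H2A variants came next. H2afz, which encodes the H2A.Z found at promoters, stood at 77.9 and 86.4 TPM, and H2afv, the gene for the second H2A.Z protein, at 18.4 and 17.4 TPM. H2afy, a macroH2A gene of repressed chromatin, stood at 47.8 and 48.1 TPM, and its relative H2afy2 at 9.72 and 11.4 TPM. H2afx stood at 19.8 and 22.2 TPM and H2afj at 15.1 and 16.4 TPM. From H2afz down to H2afy2 the order was H2afz, H2afy, H2afx, H2afv, H2afj, H2afy2, and no neighbours in it overlapped between the libraries. Together these 6 made up 44.99% ± 0.696 of H2A TPM.

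The replacement H1 genes were H1f0, the linker histone of differentiated cells, at 34.6 and 39.7 TPM, and H1fx at 21.7 and 20.9 TPM. They made up 44.2% ± 3.19 of H1 TPM. H1f0 was higher than every replication-dependent H1 gene within each library, though Hist1h1c in replicate 2 (34.8 TPM) stood just above H1f0 in replicate 1.

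Several replacement genes had more than 1 transcript form, and the forms depended on the quantification. The deposited data hold a first quantification from transcriptome alignments, used above, and a second from the reads themselves. For H3f3b the first gave 55.9% and 52.5% of the gene to the noncoding H3f3b-204 and 38.7% and 42.3% to the coding H3f3b-201. The second gave H3f3b-204 44.6% and 44.3%, but moved the coding share to H3f3b-202 (47.3% and 43.7%) and left H3f3b-201 at 1.42% and 0.132%. In both, a noncoding form and a coding form each held a large share of H3f3b, but the coding form listed was not the same.

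H3f3a was split among coding forms in both. H3f3a-201 took 53.5% and 48.8% and H3f3a-207 took 36.5% and 40.1% in the first quantification, against 41.7% and 32.0% and 50.6% and 60.9% in the second, so the leading form changed. H2afz had a dominant coding form, H2afz-201, at 94.8% and 88.0% in the first and 95.9% and 97.5% in the second. H2afy was the most divided, with coding H2afy-201 at 35.2% and 28.2%, coding H2afy-202 at 13.2% and 19.5%, and noncoding H2afy-204 at 27.4% and 24.0%. The second quantification gave similar shares for those 3 H2afy forms (38.5% and 28.7%, 12.8% and 17.7%, 28.9% and 27.1%). For H2afj the short form H2afj-202 held 32.6% and 43.2% in the first quantification and 0 in both libraries of the second.

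**Figure D3:**
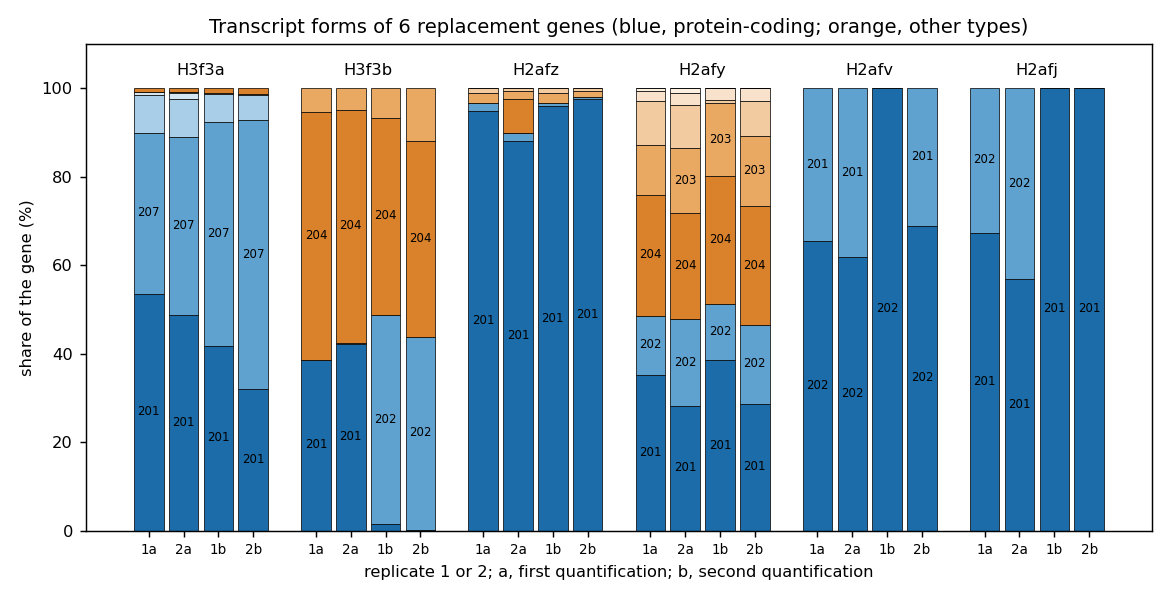
Share of each gene's TPM by transcript form for 6 replacement genes, with bars for replicates 1 and 2 in the first (a) and second (b) quantification, blue for protein-coding and orange for other transcript types. H3f3b changes its coding form between a and b, whereas the H2afz bars stay mostly a single form.

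Between the animals, no member with enough counts was 2-fold apart, which is also rare over all genes. By the median absolute ratio, replication-dependent members were farther apart than genes in general. The measure was the log2 ratio of replicate 1 over replicate 2 on TMM-scaled expected counts with a prior count of 2. Of the 54 members that averaged 50 normalised counts or more, 0 were 2-fold apart, where 122 of 14169 genes (0.861%) were. The median absolute log2 ratio was 0.17 over these members (0.21 for the 44 replication-dependent and 0.11 for the 10 replacement genes) and 0.11 over all such genes. The signed median over members with at least 10 counts was -0.02. Widest apart were Hist1h2ag with 33.0 and 68.5 expected counts (log2 ratio -0.86), Hist1h2ao with 159 and 100 (0.82) and Hist1h2ab with 49.6 and 99.7 (-0.81). All 3 are H2A genes of chromosome 13 with under 50% of their sequence windows unique.

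Replication-dependent H1 genes leaned the same way. Their summed counts had a log2 ratio of -0.33 in the first quantification and -0.26 in the second. Hist1h1e had 654 and 999 expected counts (-0.44), Hist1h1a 123 and 185 (-0.42), Hist1h1c 703 and 973 (-0.30) and Hist1h1d 211 and 269 (-0.18). These were the 4 of 4 H1 genes with at least 50 normalised counts, and none reached 2-fold. Hist1h1b went the other way with 52 and 41 counts, below that limit. Hist1h1e shares 496 bases on the same strand with Hist1h2be, which had 129 and 149 counts. Of 7 choroid plexus markers, 5 passed the count limit, all 5 of them over 2-fold higher in replicate 1, and none of the 7 was at 0 in both libraries. Their part in the H1 ratio was not tested. The H4 sums went in the other direction, with a log2 ratio of 0.15 in the first quantification and 0.35 in the second.

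**Figure D4:**
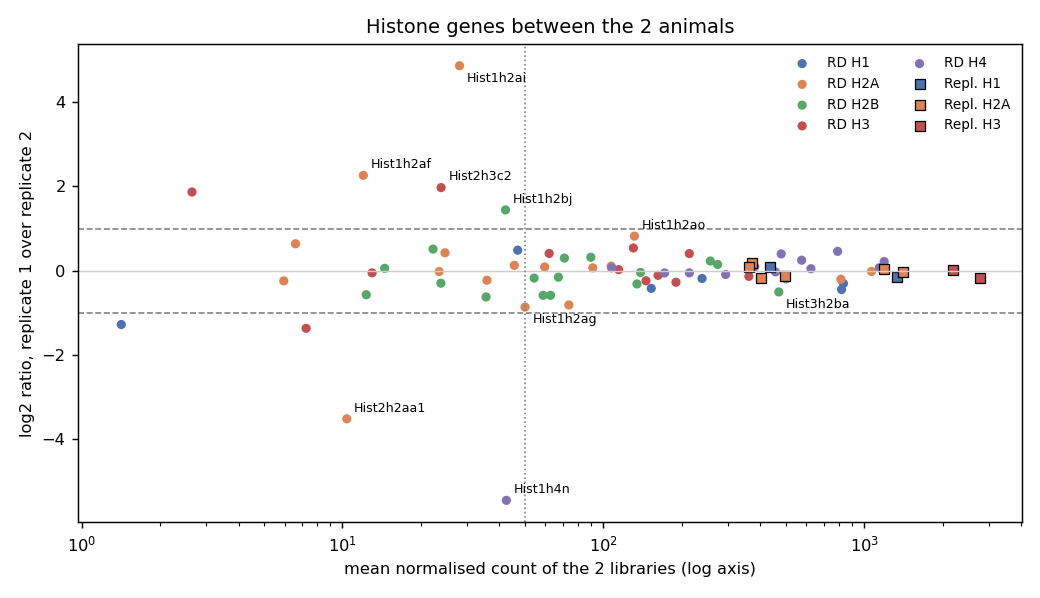
Log2 ratio of replicate 1 over replicate 2 for each gene with counts, against the mean normalised count on a log axis; circles are replication-dependent and squares replacement genes, coloured by class. Dashed lines mark 2-fold and the dotted line 50 counts; every gene past 2-fold lies left of the dotted line.

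Below 50 counts some members were listed in 1 library only. Hist1h2ai had 52.8 and 0 expected counts, Hist1h4n 0 and 90.4, and Hist2h2aa1 0 and 22.2. All 3 have less than 20% of their windows unique. With the limit lowered to 10 counts, 6 of 71 members were 2-fold apart, where 3.43% of all genes were. Beside the 3 above, they were Hist1h2af with 19.7 and 2.98 counts, Hist1h2bj with 58.5 and 23.1, and Hist2h3c2 with 37.4 and 8.98. With no limit, 9 of 80 were, and 5.25% of all genes. The added ones, Hist1h1t (0 and 3 counts), Hist1h3c (2.93 and 12.4) and Hist2h3c1 (5.38 and 0), lay under 10 counts on average. In the second quantification Hist1h2ai was not at 0 in either library, with 247 and 63.4 estimated counts, and Hist1h4n was at 0 in both. There 3 of 49 members with 50 counts were 2-fold apart between the animals (0.958% of all genes): Hist2h2aa2 with 327 and 0.32 counts, Hist1h4a with 170 and 609, and Hist1h2ai.

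How far reads can be assigned to 1 member was gauged from the sequence itself. Each window of 101 bases of a gene's transcripts was looked for in the transcripts of all other genes, on the sense strand. The median member had 69.3% of its windows unique (64.7% for replication-dependent and 100% for replacement genes), while the median over all genes with at least 50 counts was 100%. Under 50% unique were 26 members, and 4.25% of all tested genes. Hist2h2aa2 and Hist2h3c1 had 0% unique. The authors' deposited bounds of TPM, whose level is not stated, spanned a median of 0.349 and 0.311 of the TPM for replication-dependent genes, 0.178 and 0.170 for replacement genes, and 0.249 and 0.236 for all genes with 50 counts. Coding parts of replication-dependent genes were near copies of each other. The median identity between those of equal length was 96.7% in H2A, 95.6% in H2B, 97.5% in H3 and 93.9% in H4. Among replacement genes, identity was 76.7% for H3f3a with H3f3b, 79.2% for H2afv with H2afz and 67.2% for H2afy with H2afy2. Identical coding parts were found in 4 pairs: Hist1h2ao with Hist1h2ap, Hist2h2aa1 with Hist2h2aa2, Hist1h2bq with Hist1h2br, and Hist1h4m with Hist1h4n.

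The identical pair on chromosome 3 was split differently by the quantifications. Hist2h2aa1 lies at 96245497 to 96246082 and Hist2h2aa2 at 96239749 to 96240276, on opposite strands, with 0 of 390 coding bases different and 428 windows shared. The noncoding gene Gm20634 overlaps Hist2h2aa1 on the same strand and shares those 428 windows as well. Its 206 and 130 counts in the first quantification are not in the sums of the pair. The first quantification gave Hist2h2aa1 0 and 22.2 counts and Hist2h2aa2 714 and 921. The second gave Hist2h2aa1 402 and 893 and Hist2h2aa2 327 and 0.32. The split was thus opposite in replicate 2, yet the sum of the pair was 714 and 944 in the first and 728 and 894 in the second. The sum in the first was 0.981 and 1.06 times that in the second, whereas for either gene alone the quantifications disagreed.

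The other identical pairs were less simple. Hist1h2ao and Hist1h2ap share 352 windows; the first quantification put all 159 and 100 counts on Hist1h2ao, and the second put 57.9 and 65.5 on Hist1h2ap and 0 on Hist1h2ao. Their sums therefore differed 2.74-fold and 1.53-fold. Hist1h4m and Hist1h4n summed to 864 and 795 in the first and 604 and 368 in the second. Hist1h2bq and Hist1h2br were split almost evenly in the first, with Hist1h2bq at 51.3% and 51.5% of the pair, and their sum was 1.10-fold and 6.59-fold that of the second quantification.

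Over all members, 4 of 54 with at least 50 counts were 2-fold apart in TPM between the quantifications, the same way in both libraries. Among all genes 242 of 14166 (1.71%) were. With the median shift of all genes removed, the same 4 members were apart, and 263 of all genes (1.86%). Hist1h2al, Hist1h2ao and Hist1h4f were higher in the first quantification and Hist1h3b in the second. Of the 4, 2 were among the 25 tested members with under 70% of windows unique and 2 among the 29 with more. Hist1h2al and Hist1h4f, at 82.0% and 82.1% unique, were the latter. The part of shared sequence in the disagreement was not tested. Hist1h4f had 427 and 488 counts in the first and 87.1 and 54.9 in the second. Hist1h3b had 67.4 and 55.6 against 277 and 235. Hist1h4d, fully unique and not 2-fold apart, had 1105 and 1180 against 663 and 491. By counts in place of TPM, 11 members were apart, and 284 of all genes (2.00%). The 7 added were Hist1h3h, Hist1h3i, Hist1h4b, Hist1h4i, Hist1h4j, Hist2h2aa2 and Hist2h2bb, all higher in the first. None of the 10 replacement genes was apart in TPM; H3f3a, for instance, had 2076 and 2299 counts against 2182 and 2414.

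Length was treated differently for short genes. The first quantification took 100 bases off a long gene's length to give its effective length in both libraries, and the second took off 248 and 319 bases, while Hist1h4k is listed at 312 bases. Hist1h4k had 217 and 106 TPM in the second and 161 and 160 TPM in the first. Its estimated counts in the second also differed between the libraries, at 445 and 269, and the part of effective length in the TPM was not tested. H4 class counts summed to 6411 and 6510 in the first and 4749 and 4194 in the second. As a share, H4 held 51.9% ± 4.91 of replication-dependent TPM in the second quantification. The H3.3 genes, all forms included, held 62.8% ± 4.70 of H3 TPM there.

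**Figure D5:**
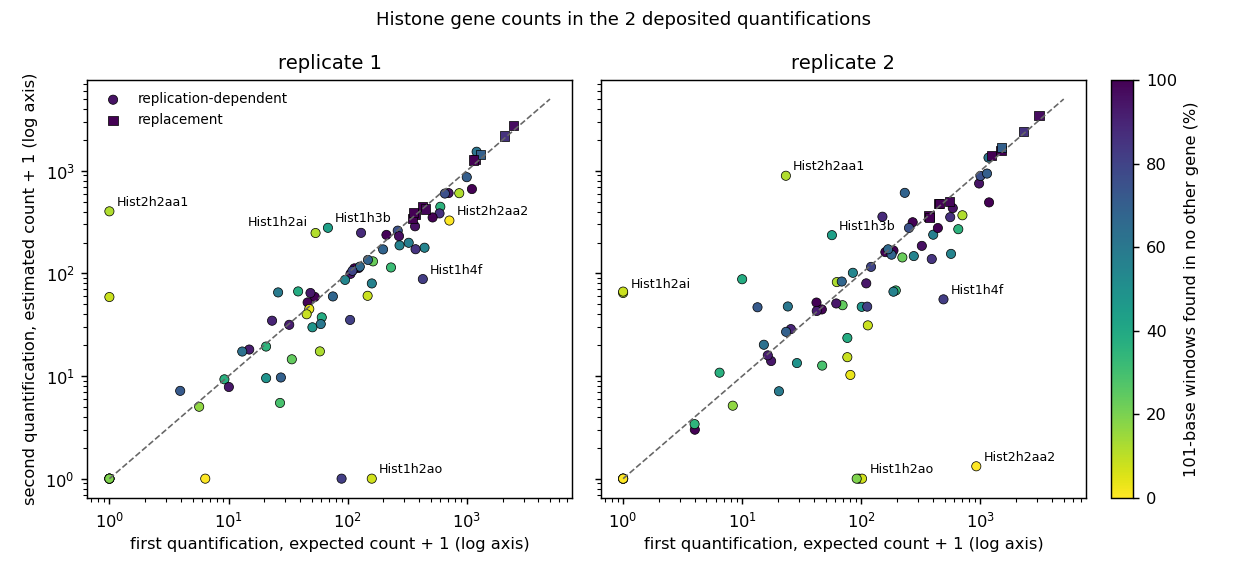
Expected count + 1 in the first quantification against estimated count + 1 in the second, on log axes, for replicate 1 (left) and replicate 2 (right); colour gives the percent of 101-base windows found in no other gene, and the dashed line marks equal values. Replacement genes (squares) lie near the line, and Hist2h2aa1 and Hist2h2aa2 lie on opposite sides of it.

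Genes that make and handle histone mRNA were present. Of a list of 20 symbols, 18 were found (Ars2 and Zcchc6, older symbols of Srrt and Tut7, were not) and 16 reached 1 TPM in both libraries. Over protein-coding genes 59.0% did. Slbp, the protein that binds the stem-loop, stood at 9.52 and 11.5 TPM, Lsm10 and Lsm11 of the U7 particle at 5.54 and 6.97 and at 9.17 and 7.13 TPM, and Npat, the coactivator of these genes, at 8.73 and 9.58 TPM. Srrt, a cap-binding partner, was highest at 77.02 and 80.94 TPM. Zfp473, a zinc finger protein of the U7 particle, was the lowest with counts, at 0.18 and 0.15 TPM. Rnu7, the U7 RNA itself, is a very short RNA and had 0 counts in both libraries. None of the 16 with 50 counts was 2-fold apart between the animals, where 0.861% of all genes were.

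Most histone chaperones and exchange factors were detected. Of 26, 23 reached 1 TPM in both libraries, where 59.0% of protein-coding genes did. Nap1l5, a nucleosome assembly protein family member, was highest at 168 and 169 TPM. Hira, which places H3.3, stood at 40.0 and 48.0 TPM, Atrx at 73.3 and 71.9 TPM and its partner Daxx at 12.5 and 11.1 TPM. Nasp, a chaperone of H3 and H4, stood at 10.9 and 12.3 TPM, and Supt16 and Ssrp1, the subunits of FACT, at 24.6 and 27.5 and at 46.3 and 45.9 TPM. Chaf1a and Chaf1b, the CAF-1 subunits that place histones behind replication forks, stood at 0.95 and 1.44 and at 0.28 and 0.46 TPM. Asf1a stood at 15.3 and 11.8 TPM, while its proliferation-linked relative Asf1b was the lowest of the list at 0.27 and 0.38 TPM. None of the 24 with 50 counts was 2-fold apart between the animals, where 0.861% of all genes were.

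Genes of S phase and mitosis were low beside the histone genes. Of 22, 11 reached 1 TPM in both libraries, where 59.0% of protein-coding genes did. The median of the 22 was 1.27 TPM. Pcna, the sliding clamp, was highest at 23.6 and 24.7 TPM. Mki67 stood at 0.33 and 0.24 TPM, Top2a at 0.26 and 0.43 TPM, and Cdc6 was lowest at 0.24 and 0.07 TPM. None of the 12 with 50 counts was 2-fold apart, where 0.861% of all genes were. Of the 9 histone variants with other symbols, Cenpa, the centromere H3, stood at 1.85 and 2.18 TPM, and 6 had 0 counts in both libraries. H3f3c, an annotated processed pseudogene that shares 167 windows with H3f3a, was listed at 6.67 and 2.39 TPM.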

How the data were processed

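Total RNA of left cerebral cortex was sequenced from 2 animals in 1 group. The authors' gene tables hold, per the file headers, expected counts, TPM and FPKM, with lower and upper TPM bounds, and each transcript's percent of its gene, on mm10 with GENCODE M21 (first quantification). A second deposited transcript table gives estimated counts and TPM, summed here per gene. Programs, their versions and whether strand was used: not given in the sources used here. Overlapping and near-identical genes are therefore uncertain. The hybrid's Cast reads were counted on mm10, and loss by allele was not analysed here.

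Counts were rounded and scaled by TMM (edgeR 4.0.16, R 4.3.3) or, as an alternative, DESeq2 1.42.0 size factors or spike-ins. Tables and sequence searches used Python 3.11.15, pandas 2.3.3 and numpy 2.4.6, and calculations were tested on simulated data. Sequences came from GENCODE M21 transcripts and RefSeq. Windows of 101 bases are 1 base longer than the length the first quantification takes off each gene. Comparison of the quantifications in TPM used a pseudocount of 0.1 and genes with at least 50 counts.

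Named were all replacement genes, the 3 highest of each class, members 2-fold apart, and the highest and lowest of each list. Other genes named (smaller members, pairs, H1 genes and list genes) were chosen after their values were seen. Members and lists were chosen with earlier results of these data known. Protein sequences were not used here. No test was run, since there is 1 group.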

Additional observations from a re-analysis of the deposited data

How the results depend on the processing

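With the second quantification, the replication-dependent genes summed to 1599 TPM and the replacement genes to 572.9 TPM, with a ratio of 0.355; as FPKM the sums were 998 and 329.0. The ratio was 7.07 and 3.92 by geometric means with 0.01 or 1 added to TPM, and 0.734 by expected counts, an alternative chosen after seeing the data. With either animal alone, the sums were 1548 to 1552 and 494 to 528 TPM, the ratio 0.319 to 0.340, and the members reaching 1 TPM 67 to 68, against 64 in both libraries. Members 2-fold apart between the animals were 0 under DESeq2 size factors, spike-in totals, a prior count of 0.5 and log2(TPM + 1). They were 3 in the second quantification (Hist2h2aa2, Hist1h4a and Hist1h2ai, where 0.958% of all genes were), 6 at 10 counts and 9 with no filter (5.25% of all genes). The signed median ratio ran from -0.06 to 0.05 over its alternatives, changing sign, while the median of all genes ran from -0.05 to 0.06. Members apart between the quantifications were 4 with or without the median shift removed and 11 by counts, both added after seeing the data. No paired analysis was possible because there is 1 group. The 26 members under 50 normalised counts did not enter the count of 0. Some of them, such as Hist2h2aa1 (402 and 893), had more counts in the second quantification. The part of depth in which members are low was not tested.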
